A study of Mus musculus with 11 samples.

Results

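The delta-protocadherins are the non-clustered protocadherins Pcdh1, Pcdh7, Pcdh8, Pcdh9, Pcdh10, Pcdh11x, Pcdh17, Pcdh18, Pcdh19 and Pcdh20. Every probe set whose annotation names 1 of them as its only gene was taken, which gave 27 of 45037 probe sets for 10 of 18193 genes. The probe set with the highest mean over all arrays stood for the gene, and its other probe sets served as a check. Values are RMA expression values on a log2 scale, so a difference of 1 is a doubling, and the array medians lay between 4.48 and 4.63. A mean below 5 is close to these medians and is treated here as near background.

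Motor neuron RNA of C57/BL6 mouse embryos was hybridised to 11 Affymetrix arrays, 1 per sample. All embryos carried Hb9::GFP, a green fluorescent reporter driven by the promoter of the motor neuron gene Hb9 (Mnx1), and all cells were sorted by fluorescence from dissociated spinal cords after a dextran-tetramethylrhodamine tracer had been applied to the phrenic or the radial nerve of trunk explants. The groups were phrenic motor neurons, which innervate the diaphragm (4 arrays), lateral motor column neurons filled through the radial nerve of the forelimb, written LMC radial (3 arrays), and cells of segments C3-C5 that had the reporter but no tracer, written C3-C5 GFP-only (4 arrays). The study compared each cell type with overall expression to find what distinguishes phrenic neurons. The embryonic day, the number of embryos per array and whether replicates were separate litters are not given in the labels, so p-values cover only the spread between these arrays, which may be technical. The titles of the LMC radial samples name no segment, so segment level and cell type cannot be told apart in comparisons with them. In bulk samples, fewer cells of a type and less RNA per cell cannot be told apart.

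Protocadherins are single-pass membrane proteins of the cadherin superfamily that bind the same protein on a facing cell and act in cell sorting, axon growth and synapse formation. The delta-1 members (Pcdh1, Pcdh7, Pcdh9 and Pcdh11x) have a longer extracellular part and a cytoplasmic motif that binds protein phosphatase 1. The members counted here as delta-2 (Pcdh8, Pcdh10, Pcdh17, Pcdh18, Pcdh19 and Pcdh20) have a shorter extracellular part. Several of them bind the WAVE complex, which drives actin branching. In the developing nervous system individual members are expressed in restricted groups of neurons, and neighbouring groups often differ in the combination they carry.

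The motor neuron label was checked against its markers. All 7 listed motor neuron genes averaged 5 or more in phrenic and in C3-C5 GFP-only neurons, and 5 of them did in LMC radial neurons. The other 2 averaged below 5 there, Chat (4.92) being 1 of them. Over the list the array means were 8.12 to 8.49 in phrenic, 7.49 to 7.78 in LMC radial and 8.37 to 8.62 in C3-C5 GFP-only neurons. At an adjusted p under 0.05 in limma, Mnx1, Isl1 and Isl2 were lower in LMC radial than in C3-C5 GFP-only neurons. Mnx1 and Isl1 were higher in phrenic than in LMC radial neurons, and Isl2 was lower in phrenic than in C3-C5 GFP-only neurons. Of all genes, 3.73%, 6.88% and 2.74% passed in these comparisons. Markers of other tissues also differed between arrays. The 18 listed mesenchyme and cartilage genes had array means of 5.31 to 7.04 in phrenic, 5.11 to 6.30 in LMC radial and 4.62 to 5.04 in C3-C5 GFP-only neurons. The 9 cell cycle genes had array means of 6.30 to 7.88 in phrenic, 5.64 to 6.54 in LMC radial and 5.63 to 5.98 in C3-C5 GFP-only neurons, and phrenic replicate 4 was the highest array for both lists. It was also the highest array for the listed markers of neural progenitors (8.05, against 6.69 to 7.0 in the other phrenic arrays), interneurons (6.11) and Schwann cells and glia (6.14). Of the 5 Schwann cell and glia genes, the glutamate transporter gene Slc1a3 was higher in phrenic than in C3-C5 GFP-only neurons (1.73, adjusted p = 0.045). The difference between the 3′ and the 5′ control probe sets of Actb, a sign of RNA quality, was 1.05 to 2.15 in phrenic, 1.01 to 1.12 in LMC radial and 1.07 to 1.98 in C3-C5 GFP-only arrays. The 25th percentile of all probe sets was between 3.18 and 3.20 in replicates 2 and 3 of phrenic and of C3-C5 GFP-only neurons and between 3.26 and 3.38 in the other 7 arrays, which included all LMC radial arrays. The part of these properties in the differences reported here was not tested, except where a value is given.

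Phrenic motor neurons differed from each of the other types in their delta-protocadherins. Against C3-C5 GFP-only neurons, Pcdh11x, Pcdh10 and Pcdh18 were higher and Pcdh9 and Pcdh19 were lower, which is 5 of 10 members at an adjusted p under 0.05 (limma, adjusted over all probe sets), against 2.74% of all genes in that comparison (1.43% higher and 1.31% lower). This count was 4 with a block for replicate number, and 3 without phrenic replicate 3 or C3-C5 GFP-only replicates 1 or 3. Against LMC radial neurons, Pcdh17, Pcdh11x and Pcdh10 were higher and Pcdh9 and Pcdh19 were lower, again 5 of 10 members, against 6.88% of all genes (3.88% higher and 3.00% lower). Between LMC radial and C3-C5 GFP-only neurons only Pcdh19 passed, as higher in LMC radial neurons, against 3.73% of all genes in either direction (1.70% higher and 2.03% lower). No member was lower in LMC radial than in C3-C5 GFP-only neurons by limma at the adjusted threshold, and 1 was at an unadjusted p under 0.05. Both comparisons of phrenic neurons share the 4 phrenic arrays, and each other type also enters 2 of the comparisons. The members were chosen with earlier results of these data known, so the shares of all genes are a description and no test of the family.

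Pcdh11x and Pcdh10 were higher in phrenic neurons than in each of the other types, which 1.01% of all genes were. Pcdh9 and Pcdh19 were lower in phrenic neurons than in each of the other types, which 0.649% of all genes were. Pcdh19 was the only member to pass in all 3 pairwise comparisons, as did 0.341% of all genes. The arrays of the compared types did not overlap for 7 of 10 members in phrenic against C3-C5 GFP-only neurons, where 9.29% of genes did not, for 5 of 10 in phrenic against LMC radial neurons, where 19.3% did not, and for 6 of 10 in LMC radial against C3-C5 GFP-only neurons, where 22.9% did not. The median difference of the 10 members was 0.43 in phrenic against C3-C5 GFP-only neurons, where the median of all genes was 0.01, with increases and decreases side by side. The median size of the difference, without its sign, was 1.07 among the members and 0.144 among all genes. In phrenic against LMC radial neurons it was 1.20 among the members and 0.205 among all genes, and in LMC radial against C3-C5 GFP-only neurons 0.461 and 0.196. Both subgroups took part, with 2 of 4 delta-1 members and 3 of 6 delta-2 members passing in each of the phrenic comparisons.

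**Figure D1:**
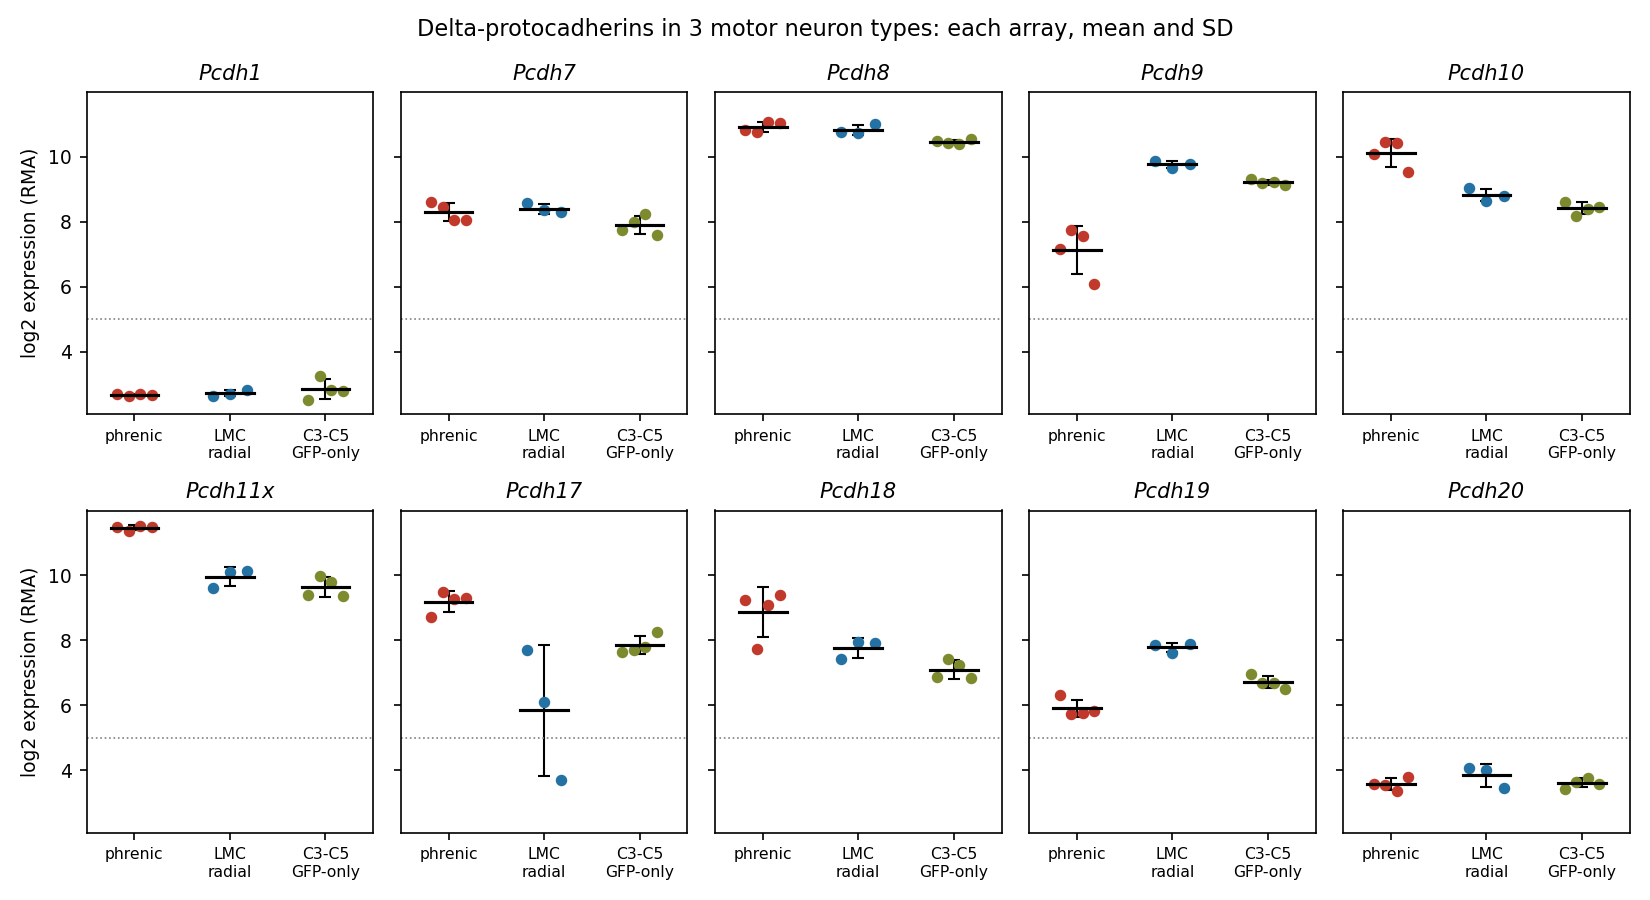
Log2 expression (RMA, vertical axis) of the 10 delta-protocadherins, each on the probe set with the highest mean, in phrenic, LMC radial and C3-C5 GFP-only motor neurons. Each point is 1 array, the long bar is the group mean, the error bar is the SD, and the dotted line marks 5. Pcdh10 and Pcdh11x stand highest in the 4 phrenic arrays and Pcdh9 and Pcdh19 lowest, and Pcdh1 and Pcdh20 lie below 5 in every array.

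Promoter windows of the 5 members that passed in a pairwise comparison and have a window are shown, so that the start regions of members with opposite patterns can be read side by side. RefSeq (GRCm38.p6) gave a window of 300 bases, 250 before and 50 after the gene start, for 8 of 10 members, and Pcdh1 and Pcdh11x were not among them. On the probe sets that stand for the genes, Pcdh10 passed as higher in phrenic neurons than in each other type. Pcdh17 passed as higher only against LMC radial and Pcdh18 only against C3-C5 GFP-only neurons. The windows of Pcdh10, Pcdh17 and Pcdh18 are chr3:45378148-45378447 (plus strand), chr14:84443313-84443612 (plus strand) and chr3:49757267-49757566 (minus strand). Pcdh9 and Pcdh19 were lower in phrenic neurons than in each other type. Their windows are chr14:93890630-93890929 (minus strand, the first of 2 listed for the gene) and chrX:133688944-133689243 (minus strand). Each is written 5′ to 3′ along the gene's strand, and capitals mark a GC box (GGGCGG, or CCGCCC on the other strand) or a CCAAT box (CCAAT, or ATTGG on the other strand).
Pcdh10: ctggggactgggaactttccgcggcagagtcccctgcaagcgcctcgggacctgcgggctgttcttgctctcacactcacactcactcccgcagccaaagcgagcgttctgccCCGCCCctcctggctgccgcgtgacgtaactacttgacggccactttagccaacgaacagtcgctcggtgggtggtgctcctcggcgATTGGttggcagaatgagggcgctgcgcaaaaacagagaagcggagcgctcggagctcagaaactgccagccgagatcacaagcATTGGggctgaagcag
Pcdh17: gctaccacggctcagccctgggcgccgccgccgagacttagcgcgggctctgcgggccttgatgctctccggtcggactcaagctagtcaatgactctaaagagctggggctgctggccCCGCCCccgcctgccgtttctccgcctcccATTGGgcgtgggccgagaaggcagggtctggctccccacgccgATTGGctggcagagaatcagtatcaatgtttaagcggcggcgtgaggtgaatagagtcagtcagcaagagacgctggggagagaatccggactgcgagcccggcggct
Pcdh18: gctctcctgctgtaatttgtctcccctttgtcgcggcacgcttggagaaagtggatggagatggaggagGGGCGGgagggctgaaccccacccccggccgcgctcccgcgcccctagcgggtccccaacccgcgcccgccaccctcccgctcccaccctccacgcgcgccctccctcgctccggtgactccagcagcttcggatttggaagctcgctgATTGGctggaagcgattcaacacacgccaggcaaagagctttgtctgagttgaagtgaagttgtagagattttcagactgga
Pcdh9: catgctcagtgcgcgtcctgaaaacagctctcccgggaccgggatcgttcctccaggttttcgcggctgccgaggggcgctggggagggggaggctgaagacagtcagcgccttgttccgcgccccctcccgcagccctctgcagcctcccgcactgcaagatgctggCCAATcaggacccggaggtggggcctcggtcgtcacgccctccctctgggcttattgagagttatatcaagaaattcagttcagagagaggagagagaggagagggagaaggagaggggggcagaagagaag
Pcdh19: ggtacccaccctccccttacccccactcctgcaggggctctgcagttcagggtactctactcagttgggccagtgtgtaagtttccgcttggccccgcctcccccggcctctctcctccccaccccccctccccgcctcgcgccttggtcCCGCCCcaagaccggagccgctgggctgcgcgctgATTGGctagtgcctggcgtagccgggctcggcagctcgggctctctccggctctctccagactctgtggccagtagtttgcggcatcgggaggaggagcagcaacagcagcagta

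A GC box was present in the windows of Pcdh10, Pcdh17, Pcdh18 and Pcdh19, 4 of 8 members, against 35.7% of 32851 windows. A CCAAT box, a motif added to the search after the windows had been seen, was present in 7 of 8, all but Pcdh7, against 37.4% of windows. Both were present in 4 members, Pcdh10, Pcdh17, Pcdh18 and Pcdh19, against 12.8% of windows. These boxes were thus found in windows of members that were higher in phrenic neurons and in windows of members that were lower. The homeodomain core TAATTA was in none of the 8 windows and in 5.29% of all windows, and the E-box CAGCTG was in none and in 16.3%. The octamer ATGCAAAT and the TATA box TATAAA were each in Pcdh8 alone, against 1.74% and 13.6% of windows. Every motif was searched on both strands, and no matches of different motifs overlapped in these windows. The observed over expected CpG ratio was 0.824 in Pcdh10, 0.822 in Pcdh17, 0.778 in Pcdh18, 0.641 in Pcdh8, 0.620 in Pcdh9, 0.540 in Pcdh19, 0.493 in Pcdh7 and 0.281 in Pcdh20, where the median of all windows was 0.384. It exceeded 0.6 in 5 of 8 members and in 35.8% of all windows. A match is a description of these letters and does not show binding.

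Among the delta-1 members, Pcdh11x was higher in phrenic neurons than in the other types. Pcdh11x is an X-linked protocadherin that in human, but not in mouse, has a copy on the Y chromosome. Probe set 1436449_at read 11.50, 11.36, 11.53 and 11.49 in the phrenic arrays, 9.62, 10.11 and 10.13 in the LMC radial arrays, and 9.39, 9.99, 9.81 and 9.38 in the C3-C5 GFP-only arrays. Every phrenic array lay above every other array, while the LMC radial and C3-C5 GFP-only arrays overlapped. Pcdh11x was 3.55-fold higher in phrenic than in C3-C5 GFP-only neurons (log2 difference 1.83 ± 0.17 SE, adjusted p = 0.000266). It was 2.86-fold higher in phrenic than in LMC radial neurons (1.52 ± 0.18, adjusted p = 0.00062). The difference between LMC radial and C3-C5 GFP-only neurons was 0.31 ± 0.18 with a 95% interval of -0.08 to 0.70 and did not pass (adjusted p = 0.363).

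The other probe set of Pcdh11x, 1438889_at, was high in only 3 of the 4 phrenic arrays. It read 9.23, 9.31, 9.15 and 6.60 in phrenic arrays 1 to 4, against 6.04 to 6.92 in LMC radial arrays and 5.53 to 6.75 in C3-C5 GFP-only arrays. Phrenic replicate 4 thus lay within the range of the other types on this probe set but at the phrenic level on the first. With this array the differences of 2.36 ± 0.56 against C3-C5 GFP-only (adjusted p = 0.0639) and 2.07 ± 0.61 against LMC radial neurons (adjusted p = 0.0709) did not pass.

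Pcdh9, another delta-1 member, had the opposite pattern. It is a neuronal adhesion protein of the developing brain and spinal cord. Probe set 1429861_at read 7.15, 7.74, 7.56 and 6.09 in phrenic arrays, 9.87, 9.66 and 9.77 in LMC radial arrays, and 9.31, 9.21, 9.23 and 9.14 in C3-C5 GFP-only arrays. No groups overlapped, the LMC radial arrays being highest and the phrenic arrays both lowest and most spread. Pcdh9 fell to a mean of 7.14 ± 0.74 in phrenic neurons (SD, n = 4), against 9.77 ± 0.11 in LMC radial (n = 3) and 9.22 ± 0.07 in C3-C5 GFP-only neurons (n = 4). The difference was -2.63 ± 0.31 against LMC radial neurons, 6.19-fold lower (adjusted p = 0.000632), and -2.08 ± 0.29 against C3-C5 GFP-only neurons, 4.24-fold lower (adjusted p = 0.00392). LMC radial and C3-C5 GFP-only neurons differed by 0.54 ± 0.31 (95% interval -0.14 to 1.23), which did not pass (adjusted p = 0.361) but did in a fit of these types alone (adjusted p = 0.02).

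Probe set 1442659_at of Pcdh9 was also lower in phrenic neurons. It read 6.54, 6.12, 5.22 and 6.76 in phrenic arrays, 7.58, 7.71 and 7.57 in LMC radial arrays, and 7.69, 6.81, 6.98 and 6.82 in C3-C5 GFP-only arrays. The difference passed against LMC radial neurons (-1.46 ± 0.33, adjusted p = 0.0251) and did not pass against C3-C5 GFP-only neurons (-0.91, adjusted p = 0.199), although the phrenic arrays lay below both. The last probe set, 1458269_at, was near background in every array.

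Pcdh7 is known in frogs as NF-protocadherin for its part in neural tube and retinal axon development. Its 3 probe sets gave no common direction in phrenic against C3-C5 GFP-only neurons. The highest, 1456214_at, read 8.60, 8.47, 8.06 and 8.05 in phrenic arrays, 8.58, 8.36 and 8.29 in LMC radial arrays, and 7.76, 8.01, 8.23 and 7.58 in C3-C5 GFP-only arrays. The phrenic arrays overlapped both other types, and none of the pairwise differences passed, the largest being 0.51 ± 0.19 between LMC radial and C3-C5 GFP-only neurons (95% interval 0.10 to 0.92, adjusted p = 0.159). On 1427592_at the phrenic arrays read 6.90, 6.93, 5.99 and 5.52, below all LMC radial arrays at 7.78, 7.49 and 7.62, a difference of -1.30 that passed (adjusted p = 0.0338). On 1449249_at phrenic arrays at 6.68 to 7.28 lay below all C3-C5 GFP-only arrays at 7.36 to 8.66, a difference of -0.94 that did not pass (adjusted p = 0.11). They also lay below all LMC radial arrays at 7.33 to 7.88, a difference of -0.56 that did not pass (adjusted p = 0.269). As the mean of its probe sets, Pcdh7 was lower in phrenic than in LMC radial neurons (-0.66, adjusted p = 0.0163). Phrenic neurons were thus lower than LMC radial neurons on all 3 probe sets, with -0.11 on the highest, and only 1427592_at passed. Against C3-C5 GFP-only neurons the direction depended on the probe set, with 0.40 on the highest and -0.59 on 1427592_at.

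Pcdh1, best known in human airway epithelium, was near background in all types. Its only probe set, 1452294_at, ranged from 2.65 to 2.70 in phrenic, from 2.65 to 2.83 in LMC radial and from 2.53 to 3.26 in C3-C5 GFP-only arrays. No difference of Pcdh1 passed, and at this signal a difference may not be detectable.

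**Figure D2:**
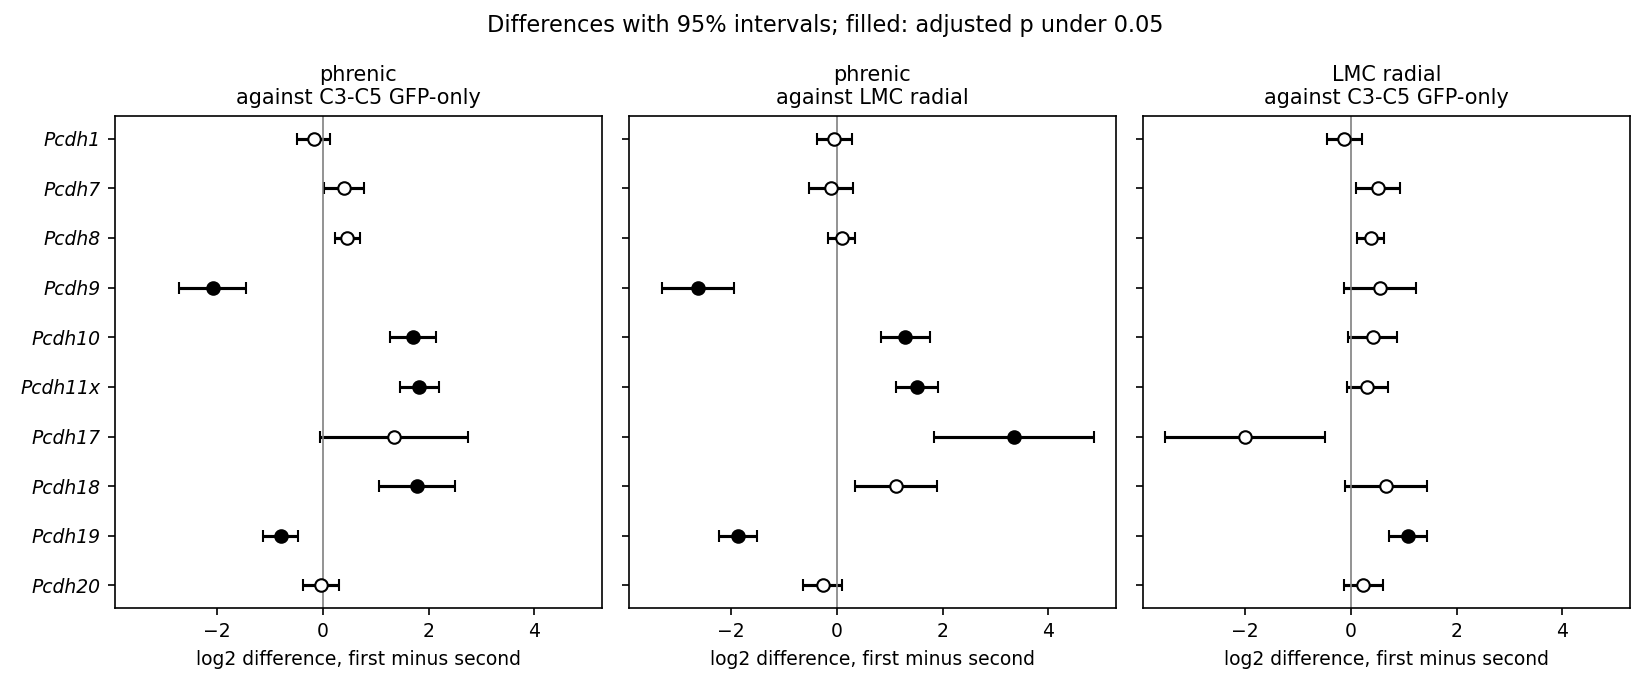
Log2 differences (horizontal axis) of the 10 delta-protocadherins in the 3 pairwise comparisons, named above each panel, with 95% intervals from limma. Filled points passed an adjusted p of 0.05 and open points did not. Pcdh9 and Pcdh19 lie left of 0 and Pcdh10 and Pcdh11x right of 0 in both comparisons of phrenic neurons, and Pcdh19 alone is filled in LMC radial against C3-C5 GFP-only neurons.

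Among the delta-2 members, Pcdh10 was the one whose increase in phrenic neurons appeared on the most probe sets. It also had the most, with 6, where the other delta-2 members had 2 or 3. Pcdh10, also called OL-protocadherin, recruits the WAVE complex through Nckap1 and is required for the growth of striatal axons in mouse. Probe set 1438134_at read 10.08, 10.45, 10.42 and 9.54 in phrenic arrays, 9.03, 8.64 and 8.81 in LMC radial arrays, and 8.62, 8.18, 8.38 and 8.47 in C3-C5 GFP-only arrays. All phrenic arrays lay above the others, with replicate 4 the lowest of them, and the LMC radial arrays lay just above the C3-C5 GFP-only arrays. Pcdh10 was 3.26-fold higher in phrenic than in C3-C5 GFP-only neurons (1.71 ± 0.20, adjusted p = 0.00121) and 2.46-fold higher than in LMC radial neurons (1.30 ± 0.21, adjusted p = 0.00491). Between LMC radial and C3-C5 GFP-only neurons the difference of 0.41 ± 0.21 (95% interval -0.06 to 0.88) did not pass (adjusted p = 0.311). Of its 5 other probe sets, 4 passed in the same direction in both phrenic comparisons, with differences of 1.60 to 2.09 against C3-C5 GFP-only and 0.97 to 2.00 against LMC radial neurons on 3 of them. On 1444301_at both other types averaged below 5, and Pcdh10 was at least 1.5-fold higher in phrenic neurons than in each, with values below 5 raised to 5. The fifth, 1442565_at, lay below 5 on average and did not pass, with 0.93 (adjusted p = 0.16) and 0.58 (adjusted p = 0.303). Among the 7 arrays with the higher 25th percentile alone, the differences were 1.26 against C3-C5 GFP-only (adjusted p = 0.0999) and 0.98 against LMC radial neurons (adjusted p = 0.0792).

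Pcdh17, which recruits WAVE at contacts between growing axons of the mouse amygdala so that they extend together, was higher in phrenic than in LMC radial neurons. Probe set 1453070_at read 8.72, 9.48, 9.28 and 9.29 in phrenic arrays, 7.72, 6.11 and 3.72 in LMC radial arrays, and 7.63, 7.72, 7.80 and 8.26 in C3-C5 GFP-only arrays. The phrenic arrays lay above all others, and the LMC radial arrays were spread from the C3-C5 GFP-only level down to background. Pcdh17 was 10.2-fold higher in phrenic than in LMC radial neurons (3.34 ± 0.69, adjusted p = 0.0158), or 7.55-fold with values below 5 raised to 5. Without LMC radial replicate 3 the difference was 2.28 (adjusted p = 0.0108), and without replicate 1 it was 4.28 (adjusted p = 0.00189). It no longer passed in a fit of these types alone (3.34, adjusted p = 0.08) or among the 7 arrays with the higher 25th percentile (3.16, adjusted p = 0.208). Against C3-C5 GFP-only neurons the difference of 1.34 ± 0.64 had a 95% interval of -0.06 to 2.74 and did not pass (adjusted p = 0.41). It passed in a fit of these types alone (1.34, adjusted p = 0.0155) and as the mean of both probe sets (1.74, adjusted p = 0.0316). LMC radial against C3-C5 GFP-only neurons gave -2.0 ± 0.69, which did not pass (adjusted p = 0.136) but did without LMC radial replicate 1 (-2.94, adjusted p = 0.0255).

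On the other probe set of Pcdh17, 1436920_at, the phrenic arrays again stood above all others. It read 7.05, 7.0, 6.90 and 7.16 in phrenic arrays, 4.31, 3.61 and 3.22 in LMC radial arrays, and 5.03, 4.92, 4.92 and 4.69 in C3-C5 GFP-only arrays. No groups overlapped, but LMC radial and C3-C5 GFP-only neurons both averaged below 5, so they are given no order here. Against means below 5 a fold is given as a lower bound, with values below 5 raised to 5. Pcdh17 on this probe set was at least 4.08-fold higher in phrenic than in LMC radial neurons (3.31 ± 0.21, adjusted p = 9.03e-06) and at least 4.06-fold higher than in C3-C5 GFP-only neurons (2.14 ± 0.20, adjusted p = 0.00027). The measured difference of -1.18 between LMC radial and C3-C5 GFP-only neurons (adjusted p = 0.0132) lies between means near background, and no fold is given for it. The probe sets of Pcdh17 thus differ on whether its increase against C3-C5 GFP-only neurons passes.

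**Figure D3:**
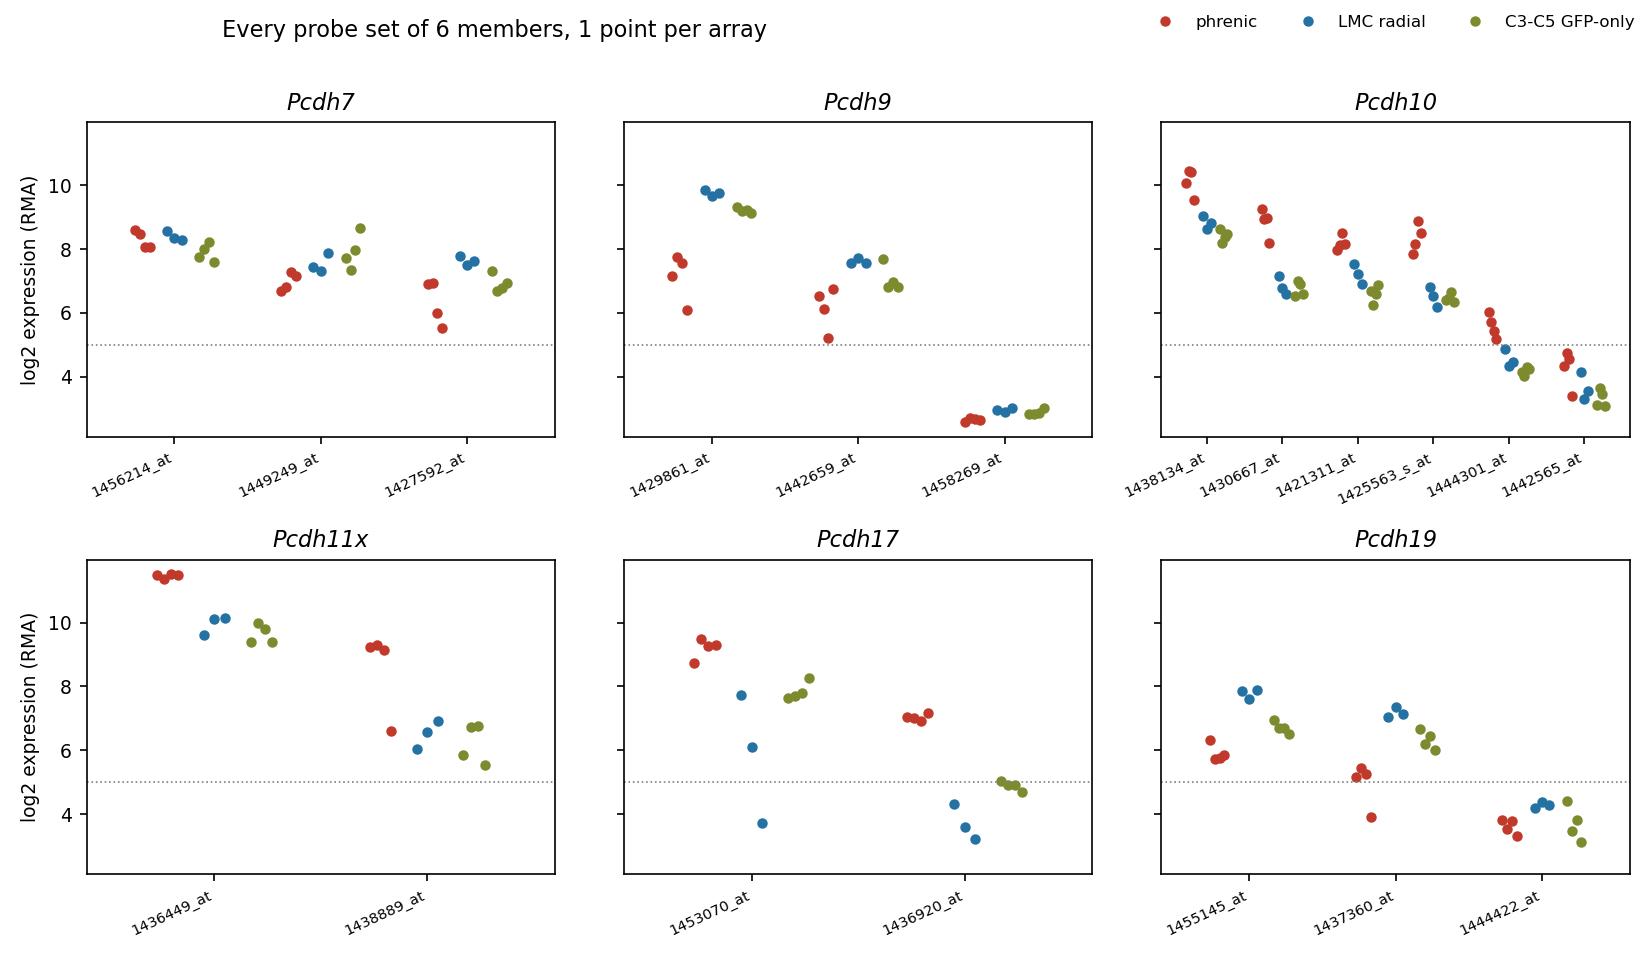
Log2 expression (RMA, vertical axis) on every single-gene probe set (horizontal axis) of Pcdh7, Pcdh9, Pcdh10, Pcdh11x, Pcdh17 and Pcdh19, with 1 point per array coloured by cell type and a dotted line at 5. Phrenic arrays lie on the same side of both other types on most probe sets of Pcdh10, Pcdh17 and Pcdh19. The 3 probe sets of Pcdh7 disagree in phrenic against C3-C5 GFP-only neurons. Phrenic replicate 4 (6.60) leaves the other phrenic arrays on 1438889_at of Pcdh11x. Heights are not comparable between probe sets.

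Pcdh18, which binds the reelin adaptor Dab1 in mouse, was higher in phrenic than in C3-C5 GFP-only neurons. Probe set 1422889_at read 9.24, 7.73, 9.09 and 9.41 in phrenic arrays, 7.42, 7.94 and 7.92 in LMC radial arrays, and 6.87, 7.42, 7.26 and 6.84 in C3-C5 GFP-only arrays. Phrenic replicate 2 lay among the LMC radial arrays, the other phrenic arrays lay above every other array, and phrenic and C3-C5 GFP-only arrays did not overlap. The increase over C3-C5 GFP-only neurons was 3.42-fold (1.77 ± 0.33, adjusted p = 0.019). With a block for replicate number, a pairing of these types only hinted at by the data, it was 1.77 with an adjusted p = 0.0535 and no longer passed. It also missed the threshold without phrenic replicate 1 (1.65, adjusted p = 0.0561) or 3 (1.70, adjusted p = 0.0502), and without C3-C5 GFP-only replicate 1 (1.70, adjusted p = 0.0607), 3 (1.83, adjusted p = 0.0547) or 4 (1.69, adjusted p = 0.068). As the mean of its 3 probe sets Pcdh18 differed by 0.67 (adjusted p = 0.0969), and the call was also lost with values below 5 raised to 5 (adjusted p = 0.0743) and in a fit of these types alone (adjusted p = 0.0532). Against LMC radial neurons the difference of 1.11 ± 0.35 (95% interval 0.33 to 1.88) did not pass (adjusted p = 0.0923), but did without phrenic replicate 2 (1.49, adjusted p = 0.00302) and among the 7 arrays with the higher 25th percentile (1.57, adjusted p = 0.0181). The other 2 probe sets of Pcdh18 lay below 5 and did not pass.

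Markers of mesenchyme were read beside Pcdh18. Of 18 mesenchyme and cartilage genes, 12 had an unadjusted p under 0.05 as higher in phrenic than in C3-C5 GFP-only neurons. The share of all genes at that unadjusted threshold was not counted. The median difference of the list was 1.48, where that of all genes was 0.01. After adjustment 3 of 18 were higher, against 1.43% of all genes, namely the matrix genes Fn1 (1.49, adjusted p = 0.0148) and Postn (1.35, adjusted p = 0.0384) and the transcription factor gene Foxc1 (2.15, adjusted p = 0.0155). None passed against LMC radial neurons in limma, where 2 were higher and 1 lower in phrenic neurons at an unadjusted p under 0.05. The list mean was 5.85, 5.31, 6.73 and 7.04 in phrenic replicates 1 to 4, where Pcdh18 read 9.24, 7.73, 9.09 and 9.41. Replicate 2 was thus the lowest phrenic array for both, while replicate 1 lay below replicate 3 on the list and above it for Pcdh18. In LMC radial replicates 1 to 3 the list mean was 5.99, 6.30 and 5.11, and Pcdh18 read 7.42, 7.94 and 7.92. The group mean was below 5 for 5 of the 18 genes in phrenic, 6 in LMC radial and 11 in C3-C5 GFP-only neurons. Among phrenic arrays Pcdh10 was lowest in replicate 4, where this list was highest and the motor neuron list lowest (8.12). Pcdh11x stayed between 11.36 and 11.53 in all phrenic arrays. The part of such cells in the results for Pcdh18, Pcdh10 and Pcdh11x was not tested.

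**Figure D4:**
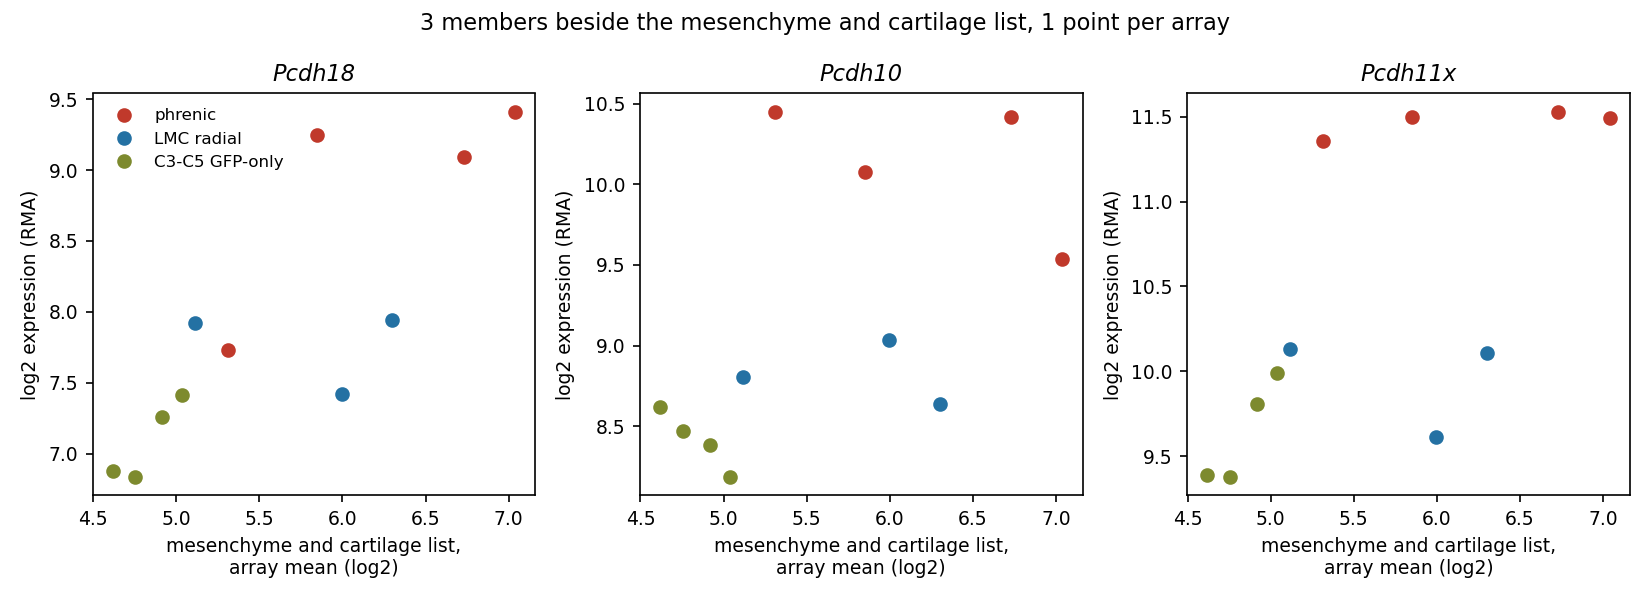
Log2 expression (RMA, vertical axes) of Pcdh18, Pcdh10 and Pcdh11x against the mean of 18 mesenchyme and cartilage genes on the same array (horizontal axis), with 1 point per array coloured by cell type. Phrenic replicate 2, at a list mean of 5.31, has the lowest phrenic value of Pcdh18 (7.73) and the highest of Pcdh10 (10.45). Pcdh11x stays between 11.36 and 11.53 in the phrenic arrays.

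Pcdh19 was the member that passed between all 3 types on its highest probe set. Pcdh19 is X-linked, is mutated in a human epilepsy that mainly affects females, and acts with N-cadherin in zebrafish. Probe set 1455145_at read 6.31, 5.74, 5.77 and 5.84 in phrenic arrays, 7.86, 7.62 and 7.88 in LMC radial arrays, and 6.95, 6.70, 6.69 and 6.50 in C3-C5 GFP-only arrays. LMC radial arrays were highest, phrenic arrays lowest, and C3-C5 GFP-only arrays between them, with no overlap. Pcdh19 was 3.67-fold lower in phrenic than in LMC radial neurons (-1.87 ± 0.16, adjusted p = 7.41e-05) and 1.74-fold lower than in C3-C5 GFP-only neurons (-0.80 ± 0.15, adjusted p = 0.0209). It was 2.11-fold higher in LMC radial than in C3-C5 GFP-only neurons (1.08 ± 0.16, adjusted p = 0.00565), a difference that did not pass among the 7 arrays with the higher 25th percentile (1.06, adjusted p = 0.153). The difference between phrenic and C3-C5 GFP-only neurons missed the threshold without phrenic replicate 2 (-0.74, adjusted p = 0.0503) or 3 (-0.75, adjusted p = 0.0536) and without C3-C5 GFP-only replicate 1 (-0.72, adjusted p = 0.0607), 2 (-0.80, adjusted p = 0.0651) or 3 (-0.81, adjusted p = 0.0648). It also missed it in a fit of these types alone (-0.80, adjusted p = 0.0549) and among the 7 arrays with the higher 25th percentile (-0.65, adjusted p = 0.35).

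Probe set 1437360_at of Pcdh19 gave the same order. It read 5.16, 5.44, 5.25 and 3.91 in phrenic arrays, 7.03, 7.34 and 7.15 in LMC radial arrays, and 6.66, 6.20, 6.45 and 6.01 in C3-C5 GFP-only arrays. Phrenic neurons averaged below 5 on it. With values below 5 raised to 5, Pcdh19 was at least 3.89-fold lower in phrenic than in LMC radial neurons (adjusted p = 0.00203) and at least 2.17-fold lower than in C3-C5 GFP-only neurons (adjusted p = 0.0373), while LMC radial against C3-C5 GFP-only neurons (0.84, adjusted p = 0.169) did not pass. The third probe set, 1444422_at, lay below 5 and passed nowhere.

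Pcdh8, also called arcadlin, is induced by neuronal activity and drives N-cadherin from the membrane. Its highest probe set, 1447825_x_at, carries the suffix of sets with probes that may match other transcripts. It read 10.84, 10.77, 11.06 and 11.04 in phrenic arrays, 10.76, 10.74 and 11.02 in LMC radial arrays, and 10.49, 10.41, 10.41 and 10.55 in C3-C5 GFP-only arrays. The C3-C5 GFP-only arrays lay below all others by a small margin, and the phrenic and LMC radial arrays overlapped. The difference of 0.46 ± 0.11 between phrenic and C3-C5 GFP-only neurons did not pass (95% interval 0.22 to 0.70, adjusted p = 0.0599). It passed with dim probe sets left out (adjusted p = 0.047) and with a trended, robust variance prior (adjusted p = 0.0212). LMC radial against C3-C5 GFP-only neurons gave 0.38 ± 0.12 (adjusted p = 0.107). On 1417051_at the arrays of phrenic neurons (7.53 to 8.06) exceeded those of C3-C5 GFP-only neurons (7.10 to 7.44) by 0.46, which did not pass (adjusted p = 0.282).

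Pcdh20 was near background, with 3.36 to 3.81 in phrenic, 3.45 to 4.06 in LMC radial and 3.44 to 3.78 in C3-C5 GFP-only arrays on 1424701_at. None of its differences passed.

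The series describes a comparison of each cell type with overall expression. In its place, each type was set here against the unweighted mean of the others. In phrenic neurons Pcdh10, Pcdh11x, Pcdh17 and Pcdh18 were higher and Pcdh9 and Pcdh19 lower, 6 of 10 members, against 4.86% of all genes (3.08% higher and 1.79% lower). Pcdh17 in phrenic neurons (2.34, adjusted p = 0.0454) missed the threshold without any 1 phrenic or C3-C5 GFP-only array or LMC radial replicate 2 (2.25 to 2.5, adjusted p 0.0676 to 0.107), and Pcdh18 (1.44, adjusted p = 0.0198) without phrenic replicate 1 (1.32, adjusted p = 0.0572) or 3 (1.37, adjusted p = 0.0585). With replicate number as a block over all 11 arrays, LMC radial arrays included, neither Pcdh17 (2.30, adjusted p = 0.0757) nor Pcdh18 (1.42, adjusted p = 0.0544) passed. In LMC radial neurons Pcdh9 (1.59, adjusted p = 0.00727) and Pcdh19 (1.48, adjusted p = 0.000243) were higher and Pcdh11x (-0.60, adjusted p = 0.046) and Pcdh17 (-2.67, adjusted p = 0.0252) lower, 4 of 10, against 7.07% of all genes (3.40% higher and 3.67% lower). Pcdh11x there missed the threshold without phrenic replicates 1, 2 or 3, any 1 LMC radial array, or C3-C5 GFP-only replicates 2 or 3 (-0.69 to -0.43, adjusted p 0.0597 to 0.204). Pcdh17 missed it without LMC radial replicate 2 (-2.80, adjusted p = 0.0748) or C3-C5 GFP-only replicate 3 (-2.68, adjusted p = 0.0506). The mean of the others here contains the phrenic arrays. Directly against C3-C5 GFP-only neurons Pcdh19 passed, while Pcdh9 (0.54, adjusted p = 0.361) and Pcdh17 (-2.0, adjusted p = 0.136) did not. Pcdh11x did not pass either and had the opposite sign (0.31, adjusted p = 0.363). In C3-C5 GFP-only neurons no member was higher in limma, with 1 at an unadjusted p under 0.05, and Pcdh10 and Pcdh11x were lower, 2 of 10, against 1.20% of all genes (0.890% higher and 0.313% lower). Pcdh10 there (-1.06, adjusted p = 0.0209) missed the threshold without LMC radial replicate 1 (-1.01, adjusted p = 0.0555) or C3-C5 GFP-only replicates 2, 3 or 4 (-1.08 to -0.98, adjusted p 0.0613 to 0.0986). The mean of the others in this contrast contains the phrenic arrays, and neither Pcdh10 nor Pcdh11x passed between LMC radial and C3-C5 GFP-only neurons directly. By group mean, Pcdh9 and Pcdh19 were highest in LMC radial neurons, and Pcdh10, Pcdh11x and Pcdh17 in phrenic neurons.

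The genes whose values followed each member most closely over the 11 arrays are given as a description, since all arrays share the same 3 cell types. Among 10424 genes with a mean of 5 or more, Pcdh9 was followed by Cbln4, a cerebellin (r = 0.989), Opcml, an adhesion protein of the IgLON family (r = 0.982), and Rph3a, a synaptic vesicle protein (r = 0.982). Cbln4 averaged 4.06 in phrenic, 8.33 in LMC radial and 7.23 in C3-C5 GFP-only neurons, the order that Pcdh9 has. Pcdh19 was followed by Rgs4, a regulator of G-protein signalling (r = 0.978), Ntm, another IgLON protein (r = 0.973), and Dact1, a modulator of Wnt signalling (r = 0.965). Pcdh11x was followed by Alcam, an immunoglobulin adhesion protein of axons (r = 0.975), Ccdc157 (r = 0.964) and C530044C16Rik (r = 0.956). For Pcdh10 they were Grik1, a kainate receptor subunit (r = 0.971), 2610316D01Rik (r = 0.961) and Tsen34, a tRNA splicing subunit (r = 0.959). For Pcdh17 they were Lin7a, a synaptic scaffold protein (r = 0.949), Brinp1 (r = 0.949) and Emb, an immunoglobulin protein (r = 0.946). For Pcdh18 they were Plod2, a collagen-modifying enzyme (r = 0.958), Flcn (r = 0.948) and S1pr3, a sphingosine phosphate receptor (r = 0.944). For Pcdh8 they were Lrrc3 (r = 0.934), Epb41l5 (r = 0.913) and Neil3, a DNA glycosylase (r = 0.903).

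Other large cadherins were read beside the shares of all genes that passed, 2.74%, 6.88% and 3.73% in the 3 pairwise comparisons. Of 23 clustered protocadherins, Pcdhb17 was higher in phrenic than in C3-C5 GFP-only neurons (0.49 ± 0.10, adjusted p = 0.0318). Pcdhb17 (0.51 ± 0.11, adjusted p = 0.0186) and Pcdhb21 (0.80 ± 0.20, adjusted p = 0.0392) were higher in phrenic than in LMC radial neurons, and probe sets of this cluster can cross-react between its similar genes. Of 6 genes of the Fat and Dachsous cadherin pathway, Fjx1, a kinase of these cadherins, was lower in phrenic than in C3-C5 GFP-only (-1.01, adjusted p = 0.0448) and LMC radial neurons (-1.15, adjusted p = 0.0166). Fat1 was lower in phrenic than in LMC radial neurons (-1.06, adjusted p = 0.0177), and Fat3 was lower in LMC radial than in C3-C5 GFP-only neurons (-1.39, adjusted p = 0.00646). None of 8 other non-clustered or related protocadherins and none of 3 Celsr cadherins passed in limma in any of the 3 pairwise comparisons, with at most 2 and 1 of them at an unadjusted p under 0.05.

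The intracellular partners of the family were read in the same way. Of 10 WAVE complex genes, 3 protein phosphatase 1 catalytic subunits and 9 actin regulators, none passed in limma in any pairwise comparison. At an unadjusted p under 0.05 there was at most 1 gene per list and comparison, and at 2.74% to 6.88% of all genes passing, lists this short would hold few calls. Among 16 reported binding partners, Dab1, the reelin adaptor, was lower in phrenic than in C3-C5 GFP-only (-0.64, adjusted p = 0.0339) and LMC radial neurons (-1.05, adjusted p = 0.00158). Fzd7, a Wnt receptor, was lower in phrenic than in LMC radial neurons (-0.79, adjusted p = 0.022). No partner was higher in phrenic neurons in limma, and none was at an unadjusted p under 0.05.

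Members on 1 chromosome did not all move in 1 direction. In the order of GRCm38.p6, Pcdh8, Pcdh17, Pcdh20 and Pcdh9 lie on chromosome 14, with Pcdh20 and Pcdh9 as adjacent protein-coding genes. Pcdh17 was higher and Pcdh9 lower in phrenic than in LMC radial neurons, while Pcdh20, beside Pcdh9, was near background. The 2 X-linked members, Pcdh11x and Pcdh19, were the one higher and the other lower in phrenic neurons. Pcdh10 and Pcdh18, which lie on chromosome 3 with the protein-coding gene Pabpc4l between them, were both higher in phrenic than in C3-C5 GFP-only neurons.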

How the data were processed

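Log2 expression values, 1 per probe set and array, were deposited by the authors. Per the submitters' processing notes they were made with RMA, a method that normalizes probes by quantiles after background correction and then summarises each probe set, and its version is not given in the sources used here. Cell types follow the sample titles, with 4 phrenic, 3 LMC radial and 4 C3-C5 GFP-only arrays, whose small number limits the precision. Of 45101 probe sets, 64 controls were left out and 45037 fitted in limma 3.58.1 (R 4.3.3) with 1 mean per type and moderated two-sided tests. Within each of 6 comparisons, Benjamini-Hochberg adjustment ran over all fitted probe sets. The platform annotation gave 1 symbol to 34945 probe sets, several to 932, and did not list one for 9160.

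All members are named, with up to 4 genes of each other list and the 3 genes closest in Pearson correlation to each member with an F-test adjusted p under 0.05. The members and lists were chosen with earlier results of these data known. Same-numbered phrenic and C3-C5 GFP-only arrays deviated together from their group means (correlations of 0.13 to 0.22 in 4 pairs), so the numbers were taken to pair these types, as a hint from the data. Alternatives were other normalizations, filters, variance models, probe set rules, array subsets and leaving out each array in turn. The fit was tested on simulated data. Promoter windows are RefSeq's (GRCm38.p6).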

Additional observations from a re-analysis of the deposited data

Results flagged for a closer look

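Single arrays far from the rest of their group, by Dixon's test in groups of 4 arrays, were found in 2 of 54 groups of member probe sets. Chance alone gives about 5% of such groups. Neither was on the probe set that represents its gene. On 1438889_at of Pcdh11x, phrenic replicate 4 read 6.60, while the other phrenic arrays read 9.15 to 9.31. The same array read 11.49 on the representative probe set of Pcdh11x, within the range of its group. On 1458269_at of Pcdh9, C3-C5 GFP-only replicate 4 read 3.04, while the other arrays of its group read 2.84 to 2.85, all near background.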

How the results depend on the processing

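Of 23 member differences that passed over the 6 comparisons, 16 passed with every array left out in turn. On the same probe sets and on gene means, 9 passed under every other alternative, and the same 9 passed under both. The separate probe sets of a gene are left out of these counts, and on them the calls did not all hold, as with 1442659_at of Pcdh9, 1438889_at of Pcdh11x and 1444422_at of Pcdh19 (adjusted p = 0.199, 0.0639 and 0.15). These 9 include Pcdh9 and Pcdh11x in both pairwise phrenic comparisons and Pcdh19 in phrenic against LMC radial neurons. With each array left out in turn, the number of members passing was 3 to 5 in phrenic and 1 to 2 in LMC radial neurons against C3-C5 GFP-only, 5 to 6 in phrenic against LMC radial neurons, and, against the mean of the others, 4 to 6 in phrenic, 2 to 5 in LMC radial and 1 to 3 in C3-C5 GFP-only neurons. In phrenic against C3-C5 GFP-only neurons the count was 3 without phrenic replicate 3 or C3-C5 GFP-only replicates 1 or 3, where Pcdh18 and Pcdh19 were lost. In a fit of only those 7 arrays whose 25th percentile was higher, 3 members passed in phrenic and 0 in LMC radial neurons against C3-C5 GFP-only in limma, 4 in phrenic against LMC radial neurons, where Pcdh10 and Pcdh17 were lost and Pcdh18 gained, and, against the mean of the others, 3 in phrenic, 2 in LMC radial and 0 in C3-C5 GFP-only neurons. This subset holds fewer arrays. In LMC radial against C3-C5 GFP-only neurons it was 2 with array weights and 2 in a fit of these types alone. Against the mean of the others it was 2 in LMC radial neurons with values below 5 raised to 5 or with array set as a block, and in C3-C5 GFP-only neurons 1 with that floor, 4 with array weights and 1 with the mean of all probe sets. The causes were not tested. One difference turned its sign and passed: Pcdh7 in phrenic neurons against the mean of the others was 0.15 on its highest probe set (adjusted p = 0.681) and -0.52 as the mean of its probe sets (adjusted p = 0.0253). Differences that passed neither way changed sign in 39 of 836 checks and are not counted as turned.

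A block for replicate number moved the count of members passing in phrenic against C3-C5 GFP-only neurons to 4 through Pcdh18 (adjusted p = 0.0535). Against the mean of the others, Pcdh17 (2.30, adjusted p = 0.0757) and Pcdh18 (1.42, adjusted p = 0.0544) were lost in phrenic neurons, and the block changed no other call. Correlations of same-numbered arrays were -0.03 to 0.01 in phrenic against LMC radial and -0.08 to 0.05 in LMC radial against C3-C5 GFP-only neurons, so the numbers do not pair these types. The block still covered all 11 arrays, so it also shifted differences that involve LMC radial neurons. Pcdh9 in phrenic against LMC radial neurons moved from -2.63 to -2.44. Between phrenic and C3-C5 GFP-only neurons, 0 of 8 arrays correlated best with the array of their own number, so a pairing by number is not established there either. Signals of Pcdh1 and Pcdh20 near background limit what could be seen of them.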

Other observations

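Pcdh11x and Pcdh19 are X-linked, so genes that track the sex of the embryos were read on every array. Xist, expressed from the inactive X chromosome of females, ranged from 9.97 to 11.04 over the 11 arrays. The Y-linked gene Eif2s3y ranged from 8.62 to 9.94 and Kdm5d from 6.63 to 7.56 over the same arrays, so RNA of both sexes was measured on each of them. Of the 4 genes of this list, none passed in limma in any of the 3 pairwise comparisons, and at most 1 had an unadjusted p under 0.05 in a comparison.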
